A study of Mus musculus with 3 samples.

Results

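T cells and natural killer (NK) cells were examined among cells sorted from mouse intervertebral disc. The discs were lumbar, thoracic and caudal and came from mice at postnatal day 30 that carried shh-cre and R26R-tdTomato, with no treatment. In these mice Cre at the Shh locus switches on the red protein tdTomato, and cells positive for it were enriched by flow sorting before 10x Genomics 3' single-cell libraries were made. The 3 libraries are replicates of 1 group, and each is a pool of litter-matched animals, so the study holds no treated or mutant group. Shh-driven Cre marks the notochord lineage, which forms the nucleus pulposus, and lymphocytes are not part of that lineage. The shares given here are therefore shares of a sorted digest and not of the disc.

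Members were chosen by the genes they carried. Barcodes were kept if they held 500 genes or more and no more than 15% of their unique molecular identifiers (UMIs, counts of single captured RNA molecules) were mitochondrial. Among these, a T cell had a UMI of at least 2 of Cd3e, Cd3d, Cd3g and Trac. An NK cell had a UMI of both Klrb1c and Nkg7 and of none of those 4 genes. Any barcode with a UMI of Cd79a, a B cell receptor subunit, or of Elane, neutrophil elastase, was left out. This gave 149 members of 26898 kept barcodes, of which 28 were NK cells and 121 were T cells. They came as 3, 13 and 12 NK cells and as 12, 79 and 30 T cells in libraries 1, 2 and 3. The levels of these genes in the members are set by the choice and are a description only.

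Cd3e, Cd3d and Cd3g encode the signalling chains of the T cell receptor complex, and Trac encodes the constant part of the receptor's alpha chain. NK cells lack this complex and recognise targets with germline-encoded receptors, among them NKp46 (Ncr1) and the lectin-like Klr receptors, many of which signal through the adaptors Tyrobp (DAP12), Fcer1g and Hcst (DAP10). Both NK cells and cytotoxic T cells kill by releasing perforin (Prf1) and granzymes (Gzma, Gzmb) from granules. Both cell types circulate in blood and reside in bone marrow, and the disc digest was cut through vertebral bone.

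Promoter sequence is shown for 3 genes that were higher in NK cells and 2 that were lower, because these genes carry the contrast between the 2 cell types described further on. Each line gives 250 bases that end just before the RefSeq transcription start, 5' to 3' on the gene's strand, from GRCm38.p6. Capitals mark exact matches, on either strand, to TGTGGT (the Runx motif), TCACAC (a T-box core motif) or CTTTGA (the TCF/LEF motif). Ncr1 (chr7:4337465-4337714, plus strand, first of 2 starts listed), Prf1 (chr10:61297586-61297835, plus strand), Gzma (chr13:113100982-113101231, minus strand), Cd8a (chr6:71373177-71373426, plus strand) and Lat (chr7:126369569-126369818, minus strand) read as follows.
Ncr1: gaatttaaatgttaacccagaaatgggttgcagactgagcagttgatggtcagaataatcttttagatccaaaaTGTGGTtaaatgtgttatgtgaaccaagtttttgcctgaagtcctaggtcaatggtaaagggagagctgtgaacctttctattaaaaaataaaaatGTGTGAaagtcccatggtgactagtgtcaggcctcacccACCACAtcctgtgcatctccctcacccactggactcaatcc
Prf1: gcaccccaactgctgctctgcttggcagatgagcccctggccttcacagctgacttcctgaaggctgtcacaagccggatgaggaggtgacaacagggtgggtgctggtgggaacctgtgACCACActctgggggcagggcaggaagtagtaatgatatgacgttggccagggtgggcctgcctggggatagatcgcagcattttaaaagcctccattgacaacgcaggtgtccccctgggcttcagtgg
Gzma: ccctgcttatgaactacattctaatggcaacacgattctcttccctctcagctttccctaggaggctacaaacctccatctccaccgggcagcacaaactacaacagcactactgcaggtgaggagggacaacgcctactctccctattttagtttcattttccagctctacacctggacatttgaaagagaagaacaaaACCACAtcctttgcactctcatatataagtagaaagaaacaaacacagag
Cd8a: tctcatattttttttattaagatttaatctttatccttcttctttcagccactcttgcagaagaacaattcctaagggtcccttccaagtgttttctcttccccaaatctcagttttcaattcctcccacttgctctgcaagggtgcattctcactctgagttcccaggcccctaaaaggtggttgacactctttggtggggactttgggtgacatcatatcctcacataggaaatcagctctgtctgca
Lat: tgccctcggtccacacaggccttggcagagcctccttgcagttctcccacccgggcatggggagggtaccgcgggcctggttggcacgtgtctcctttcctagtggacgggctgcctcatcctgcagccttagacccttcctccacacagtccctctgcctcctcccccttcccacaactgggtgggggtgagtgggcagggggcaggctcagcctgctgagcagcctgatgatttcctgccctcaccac

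Ncr1 held 2 Runx matches and 1 T-box match, Prf1 and Gzma held 1 Runx match each, and the windows of Cd8a and Lat held none of the 3 motifs. Of the 10 genes called higher in NK cells than in T cells, 8 were in the RefSeq promoter table, and 5 of these (Gzma, Klre1, Klrk1, Ncr1 and Prf1) held a Runx match. Of the 29 genes called lower in NK cells, 23 were in the table and 5 held one (Ly6c2, Lyz2, Psap, S100a6 and S100a9). A T-box match was held by 2 of those 8 genes and 4 of those 23, and a TCF/LEF match by 0 and 1. The 29 lower genes include 6 neutrophil markers, 3 haemoglobin genes and Lyz2. Of these, S100a9 and Lyz2 held a Runx match, and S100a9 and Hbb-bs a T-box match. S100a9 and Lyz2 lost their call without the T cells rich in neutrophil and erythroid RNA described further on. A gene was counted if any of its listed starts held a match. Over all 32851 windows of the same length, 14.0% held a Runx match, 12.3% a T-box match and 13.8% a TCF/LEF match. These background shares are per window and not per gene. These matches describe letters in a window and were not tested.

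**Figure D1:**
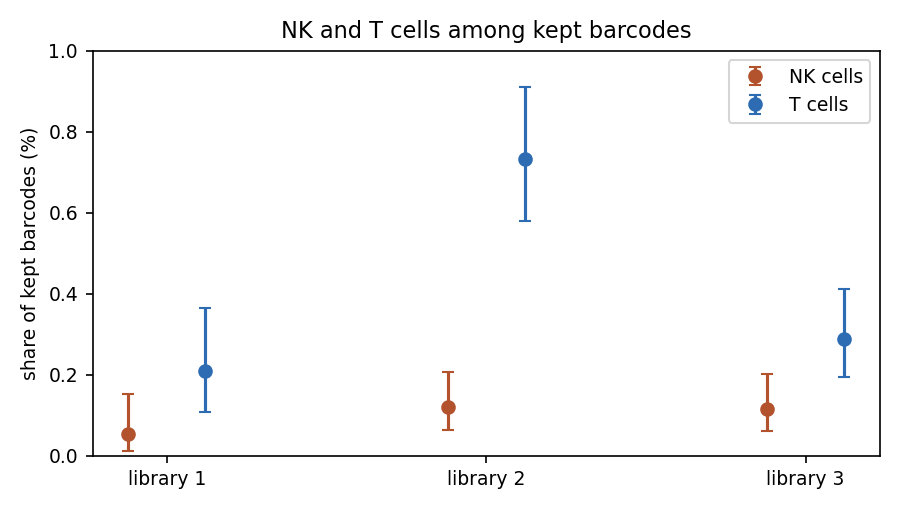
Share of kept barcodes (y axis, %) that were NK cells (left point of each pair) or T cells (right point) in each of the 3 libraries (x axis), with exact 95% binomial intervals. The T cell share in library 2, 0.732%, stands above the intervals of the other libraries, and the NK cell intervals overlap.

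Both cell types were rare. NK cells made up 0.0523% of kept barcodes in library 1 (exact Clopper-Pearson 95% interval 0.0108% to 0.153%), 0.120% in library 2 (0.0642% to 0.206%) and 0.116% in library 3 (0.0598% to 0.202%). T cells made up 0.209% in library 1 (0.108% to 0.365%), 0.732% in library 2 (0.580% to 0.911%) and 0.289% in library 3 (0.195% to 0.413%). The intervals cover counting error only. The NK share averaged 0.0962% ± 0.0380 and the T share 0.410% ± 0.282 (SD, n = 3 libraries each), so the T share varied between pools by more than its counting intervals while the NK intervals overlapped. The 2 rare types differed in depth from the B cells they are set against below, with a median of 7085 UMIs in NK cells and 5781 in T cells, against 2516 UMIs in B cells.

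The exclusion genes removed a large part of the NK candidates. Of 60 barcodes that met the NK criterion, 21 had an Elane UMI without Cd79a, 4 had Cd79a without Elane and 7 had both. Of 164 barcodes with at least 2 of the 4 T cell genes, 29 had Elane only, 8 had Cd79a only and 6 had both. Pairs of libraries shared 16 to 34 kept barcode sequences, and 0 member barcodes occurred in another library.

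The label was checked against genes that the rule did not read. Trbc2, a constant region of the T cell receptor beta chain, had a UMI in 25.0% of NK cells and 87.6% of T cells, against 0.247% of B cells. Ncr1 had a UMI in 75.0% of NK cells and 14.9% of T cells, against 0.0618% of B cells. Cd5, Cd6 and Bcl11b, which mark the T lineage, had a UMI in 0 of 28 NK cells and in 38.0%, 34.7% and 37.2% of T cells. Other T cell genes separated the sets less or not at all. Trbc1, also a beta chain constant region, had a UMI in 60.7% of NK cells and 56.2% of T cells. The kinase gene Lck had one in 64.3% of NK cells and 83.5% of T cells. Of the 4 nucleus pulposus markers that the series names, Krt8 and T had 0 UMIs in all members. Krt18 and Krt19 together gave 3 UMIs in NK cells and 1 in T cells. Of the 13 innate lymphoid genes listed, Areg, Il5, Il13, Calca, Il17rb and Il22 were at 0 in both. Areg, Il5, Il13, Il17rb and Il22 were also at 0 in B cells, so their absence says little about the label. Gata3, another of the 13, had a UMI in 28.6% of NK cells and 31.4% of T cells. Ncr1, which that list also holds, gave 142 of the list's 168 UMIs in NK cells and 78 of its 313 UMIs in T cells.

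The T cells were not uniform, and Ncr1, Gzma and Klre1 were found most often in those that carried the fewest of the rule genes. Exactly 2 of the 4 rule genes were found in 21 T cells, 3 in 31 and all 4 in 69. The 21 cells fell as 3, 15 and 3 over libraries 1, 2 and 3, and those of them with Ncr1 as 1, 9 and 2. The intervals given here pool cells of the 3 libraries and cover counting error only. Ncr1 had a UMI in 57.1% of T cells with 2 of the 4 genes (exact 95% interval 34.0% to 78.2%), in 6.45% of those with 3 (0.791% to 21.4%) and in 5.80% of those with all 4 (1.60% to 14.2%). Gzma followed with 71.4%, 12.9% and 14.5%, and Klre1, an NK receptor, with 71.4%, 22.6% and 18.8%. Not all NK genes did so, and Tbx21, a factor of NK and effector T cells, was found in 23.8%, 29.0% and 17.4%. Trbc2 ran the other way, with 42.9%, 100% and 95.7%, and so did Lat, the scaffold that links the receptor complex to downstream enzymes, with 28.6%, 54.8% and 78.3%. Both are co-expressed with the rule genes that cut these sets, so their course is tied to the cut. Trdc, of the T cell receptor delta chain, had a UMI in 38.1% of the 21 cells, against 15.7% of all T cells. Median depth was 7019, 3922 and 6476 UMIs in the 3 sets, so the sets with 2 and with all 4 genes were of like depth. After each cell was thinned to 1000 UMIs, the Ncr1 shares were 25.0%, 3.23% and 1.45%, and that of NK cells was 32.1%.

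**Figure D2:**
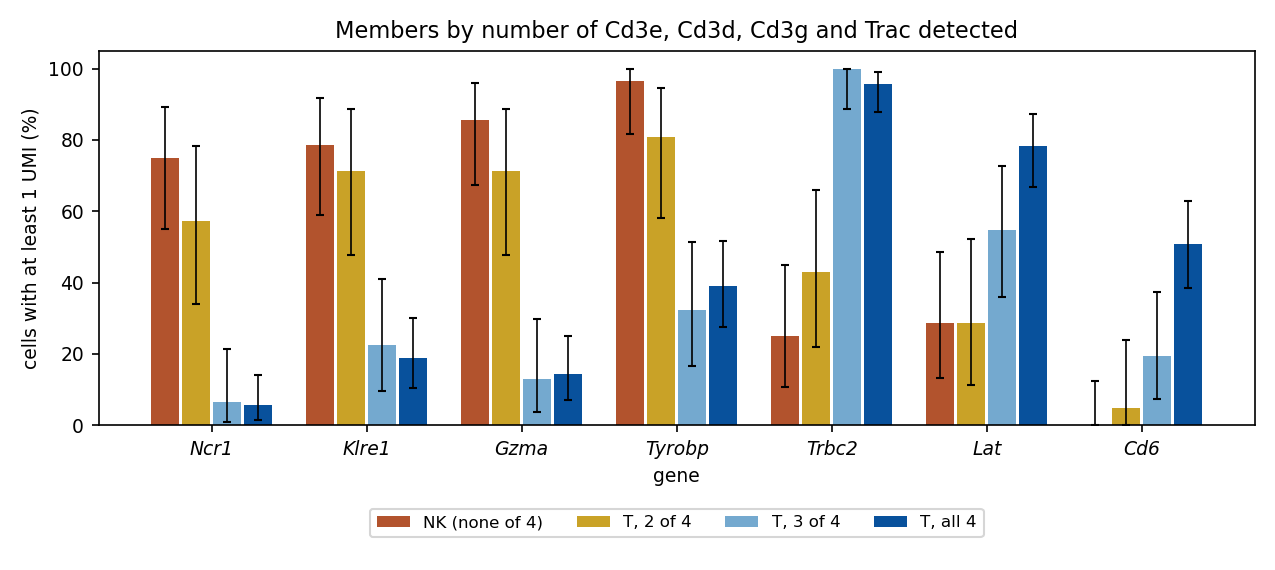
Share of cells with at least 1 UMI (y axis, %) of 7 genes that the rule did not read (x axis), in NK cells and in T cells with 2, 3 or all 4 of Cd3e, Cd3d, Cd3g and Trac. Error bars show exact 95% binomial intervals of cells pooled over the libraries, which cover counting error only. For Ncr1, Klre1, Gzma and Tyrobp the bar of T cells with 2 of the 4 genes lies nearer to NK cells than to other T cells.

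Just outside the threshold stood 611 barcodes with exactly 1 of the 4 genes, and most were of another kind. Cd3d was the 1 gene found in 91.5% of them. Fcer1g and Tyrobp each had a UMI in 96.1%, whereas Trbc2 had one in 1.47% and Lck, the kinase that starts T cell receptor signalling, in 3.11%. Of these 611, 10 also had Klrb1c and Nkg7, and their 1 T cell gene kept them out of the NK set.

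CD8 and CD4 lineages were counted among the T cells. Cd8a and Cd8b1 encode the co-receptor of cytotoxic T cells and Cd4 that of helper T cells. A UMI of Cd8a or Cd8b1 without Cd4 was found in 36 T cells (29.8%, exact 95% interval 21.8% to 38.7%), and Cd4 without Cd8a and Cd8b1 in 14 (11.6%, 6.47% to 18.7%). Neither was found in 69 T cells (57.0%), and 2 carried both. These intervals pool cells of all libraries and cover counting error only. The CD8 cells numbered 4, 25 and 7 in libraries 1, 2 and 3, and the CD4 cells 0, 8 and 6. Cd8a and Cd8b1 had a UMI in 0 of 1618 B cells, and Cd4 in 0.124%. For 0 of 1618 cells, a floor of 3 cells is a share of 0.185%, and the exact 95% upper limit is 0.228%. At 1000 UMIs per cell Cd8a was found in 8.33% of T cells and Cd4 in 5%, so absence of a UMI is not evidence that a cell lacks the gene.

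Neither CD8 nor CD4 cells reached the minimum of 10 cells in every library required for a test here, so no test was run. Their summed levels, in CPM (UMIs scaled to the total of the cell set), are given with exact Poisson intervals that cover counting error only. Ccl5, a chemokine of effector and memory lymphocytes, stood at 4317 CPM in CD8 cells (4089 to 4555) and 182 CPM in CD4 cells (104 to 296). Nkg7, a granule protein, stood at 1084 CPM in CD8 cells (971 to 1206) and 205 CPM in CD4 cells (121 to 324). In CD4 cells the 16 UMIs of Ccl5 came from 2 cells and the 18 of Nkg7 from 4 cells, all in library 2. Gzma reached 429 CPM in CD8 cells, with 97 of its 133 UMIs in library 1, and had 0 UMIs in CD4 cells. Genes of regulatory T cells stood the other way. Ikzf2 was at 113 CPM in CD8 cells (78.7 to 157) and 319 CPM in CD4 cells (212 to 460), and Ctla4 at 25.8 CPM in CD8 cells (11.1 to 50.9) and 193 CPM in CD4 cells (113 to 310), where its 17 UMIs came from 3 cells and 14 of them from library 2. Foxp3, the factor that defines regulatory T cells, had 0 UMIs in CD8 cells and a UMI in 4 of the 14 CD4 cells. Over all T cells 7 had a Foxp3 UMI. Trbc2 was alike, at 1384 CPM in CD8 cells (1256 to 1522) and 1399 CPM in CD4 cells (1163 to 1670).

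A UMI of Trdc, the constant part of the T cell receptor delta chain that marks gamma-delta T cells, was found in 25.0% of NK cells (exact 95% interval 10.7% to 44.9%) and in 15.7% of T cells (9.73% to 23.4%), against 0 of 1618 B cells. The 19 T cells fell as 1, 15 and 3 over libraries 1, 2 and 3, and the pooled intervals cover counting error only. Of these 19 cells, 14 had no Trac UMI. At 1000 UMIs per cell the Trdc share was 0% in NK cells and 10.0% in T cells. For 28 NK cells a floor of 3 cells is a share of 10.7%, so these 2 shares cannot be told apart.

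NK cells were compared with T cells to see how the 2 types differ outside the 6 genes that define them. UMIs were summed per library and cell type, and edgeR's quasi-likelihood test was fitted over all genes with the library as a block, since the NK and T sums of a library share 1 pool of animals. Adjusted p is by Benjamini-Hochberg, a gene with a value under 0.05 was called, and fold changes are log2 of NK over T with the standard error (SE). Of 1461 genes tested outside the rule, 39 were called (2.67%), 10 of them higher in NK cells (0.684%) and 29 lower (1.98%), while 150 (10.3%) had an unadjusted p under 0.05. With DESeq2 23 genes were called and with no replicate block 12, and leaving out a library gave 148 without library 1, 14 without library 2 and 25 without library 3. The NK sums were small, with 20799, 131338 and 84613 UMIs, against 69075, 684306 and 232273 UMIs in T cells. The T cell receptor genes named below are co-expressed with the 4 genes that split the sets, so their difference is tied to the rule. NK genes are tied in the same way to Klrb1c and Nkg7, which chose the NK cells. Genes low in 1 set, such as Prf1 in T cells or Cd8a in NK cells, passed the filter on low counts only through the other. Counts of calls and median fold changes within gene lists are therefore a description.

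Among NK receptors and their adaptors, Ncr1 (chr7:4337724-4345164, plus strand, mm10 with GENCODE vM21) differed most. It stood at 769, 716 and 378 CPM in NK cells of libraries 1, 2 and 3, against 43.4, 102 and 21.5 CPM in T cells. The groups did not overlap, and the log2 fold change was 3.15 (SE 0.34, edgeR adjusted p = 9.1e-05). Klre1 averaged 437 ± 169 CPM in NK cells and 152 ± 75.7 CPM in T cells (SD, n = 3 libraries each), a log2 fold change of 1.63 (SE 0.31, edgeR adjusted p = 0.0093). Klrd1 (CD94) and Klrk1 (NKG2D) were also higher, by 1.23 and 1.31 on the log2 scale, and Klra4, a Ly49 receptor, by 2.01 with overlapping groups. These 3 and Klre1 were not called with DESeq2, with no replicate block or without library 2. Klrd1, Klrk1 and Klre1 also lost their call without library 3, and Klrd1, Klra4 and Klre1 with at most 5% mitochondrial UMIs. Klrd1, Klrk1 and Klra4 lost it with doublets removed, and Klrd1 and Klra4 with at least 1000 genes. Klrd1 and Klrk1 lost it with no filter on low counts, and Klra4 where T cells needed a Trac UMI. Of 24 NK identity genes listed, 14 were tested, and 7 of these were called higher and none lower. The median log2 fold change of the 14 was 1.27, against -0.01 over all genes tested. That median follows in part from the rule and the filter, so it is a description. The Klra genes include near-identical copies in a cluster on chromosome 6, so the split of reads among them is uncertain.

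Of the signalling adaptors, Tyrobp stood at 1106, 1515 and 1726 CPM in NK cells, against 304, 539 and 603 CPM in T cells. No NK value fell in the T cell range, and the log2 fold change was 1.45 (SE 0.25, edgeR adjusted p = 0.0050). Tyrobp was not called with no replicate block, without library 2 or without library 3. Fcer1g averaged 1295 ± 404 CPM in NK cells and 549 ± 220 CPM in T cells (SD, n = 3 libraries each) without overlap, but was not called (log2 fold change 1.07, SE 0.29, edgeR adjusted p = 0.086). It was called higher without library 1 and without the cells rich in neutrophil and erythroid RNA described further on. Hcst averaged 353 ± 180 CPM in NK cells and 477 ± 110 CPM in T cells (SD, n = 3 libraries each), with overlapping groups and no call (edgeR adjusted p = 0.56).

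Among granule genes, 3 were higher in NK cells. Gzma (chr13:113093825-113100981, minus strand), the most abundant granzyme, stood at 7068, 7743 and 3876 CPM in NK cells, against 1781, 751 and 784 CPM in T cells. Prf1 stood at 288, 183 and 142 CPM in NK cells, against 29.0, 21.9 and 38.7 CPM in T cells. Neither gene overlapped, and the log2 fold changes were 2.45 for Gzma (SE 0.25, edgeR adjusted p = 6.6e-05) and 2.52 for Prf1 (SE 0.46, edgeR adjusted p = 0.0068). Serpinb9, which protects killer cells from their own granzyme B, was higher by 2.25 (SE 0.47, edgeR adjusted p = 0.018). Prf1 and Serpinb9 were not called without library 2, nor was Serpinb9 with no replicate block. Gzma was not called with at most 5% mitochondrial UMIs. Of the 9 granule genes tested, the other 6 were not called. Gzmb averaged 158 ± 64.4 CPM in NK cells and 175 ± 113 CPM in T cells (SD, n = 3 libraries each), and Ctsw averaged 398 ± 162 CPM in NK cells and 287 ± 123 CPM in T cells, both with overlapping groups and no call. The remaining gene called higher was Cmtm7 (1.30, edgeR adjusted p = 0.046), which was not called under 7 of 12 alternatives.

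**Figure D3:**
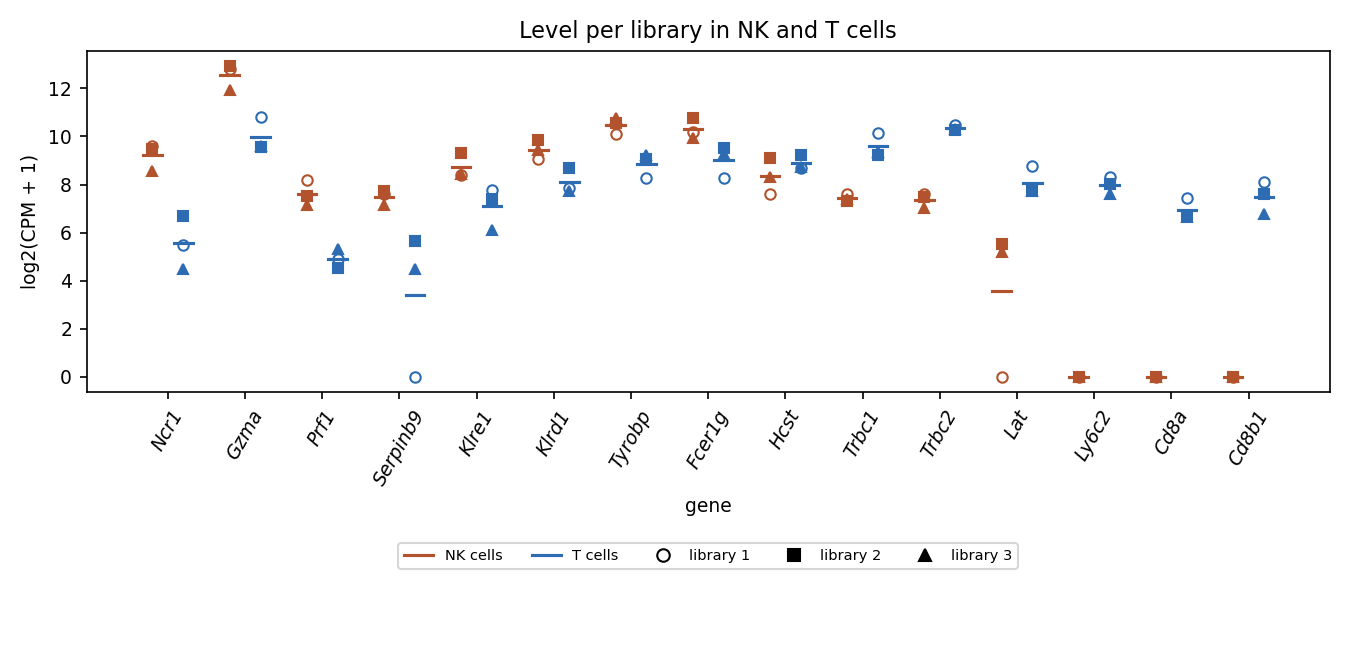
Level per library, as log2(CPM + 1) on the y axis, of 15 genes (x axis) in NK cells (left of each pair) and T cells (right); symbols mark the library and lines the mean of the 3. Ncr1, Gzma, Prf1 and Tyrobp stand higher in NK cells in each library, Fcer1g and Hcst were not called, and Ly6c2, Cd8a and Cd8b1 had 0 UMIs in NK cells.

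On the T cell side, Trbc2 (chr6:41546730-41548352, plus strand) stood at 192, 175 and 130 CPM in NK cells, against 1419, 1232 and 1261 CPM in T cells (log2 fold change -3.14, SE 0.30, edgeR adjusted p = 3.7e-05). Trbc1, its near-identical neighbour, fell by 2.21, and how fully 3' reads tell the 2 copies apart was not tested. Lat fell by 2.76, with no call without library 2, and Cd28, the co-stimulatory receptor of T cells, by 2.49. These were the 4 calls among 9 T identity genes tested. Cd8a and Cd8b1 had 0 UMIs in NK cells, which makes them at least 8.49-fold and 14.3-fold lower against a floor of 3 UMIs over the 3 libraries. Ly6c2, a surface protein of memory CD8 T cells, was at least 19.4-fold lower by the same floor, and stood at 318, 256 and 194 CPM in T cells.

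The genes S100a4 and S100a6, cytoskeletal calcium-binding proteins of effector and memory lymphocytes, also fell, by 1.80 and 1.24 on the log2 scale, and S100a4 was not called under 8 of 12 alternatives. With Ly6c2 they were the 3 calls among 8 effector and memory genes tested. Ly6a (Sca-1) stood at 0, 0 and 23.6 CPM in NK cells, against 101, 145 and 151 CPM in T cells. Ifi27l2a, an interferon-induced gene, averaged 55.4 ± 59.4 CPM in NK cells and 540 ± 190 CPM in T cells (SD, n = 3 libraries each). The log2 fold change was -4.15 for Ly6a (edgeR adjusted p = 0.0049) and -3.88 for Ifi27l2a (edgeR adjusted p = 0.0020). Ifi27l2a lost its call with no replicate block. No gene was called among 8 lymphocyte transcription factors, 8 chemokine and receptor genes and 9 integrins tested. Nor was any among 12 class I presentation genes, 13 cell cycle genes or 10 immediate early genes. Of the listed genes, only 8 of 25 factors and 8 of 31 chemokine and receptor genes passed the filter on low counts. With 2.67% of all tested genes called, lists this small would hold few or no calls, so absence of a call is not evidence of equal levels.

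Neutrophil and haemoglobin genes were also called lower in NK cells, 6 of 8 neutrophil and 3 of 4 erythroid markers tested. S100a8, a subunit of the neutrophil protein calprotectin, stood at 817, 373 and 449 CPM in NK cells, against 3214, 5692 and 29444 CPM in T cells. The sum of the 10 neutrophil markers ran from 1074 to 2981 CPM in NK cells and from 8107 to 76595 CPM in T cells, and that of the 8 erythroid markers from 337 to 769 CPM in NK cells and from 492 to 36918 CPM in T cells. A few cells carried this RNA. In 9 T cells (1, 5 and 3 in libraries 1, 2 and 3) these lists gave 11.9% to 61.2% of the UMIs, and these cells held 95.7% of the T cells' UMIs of both lists. The next T cell was at 2.57% and the highest NK cell at 0.913%. Without cells over 5%, the neutrophil sum in T cells ran from 1378 to 2063 CPM, Ngp was 0.07 on the log2 scale (edgeR adjusted p = 0.999), and Fcer1g was called at 1.58 (edgeR adjusted p = 7.4e-05). In that fit none of 6 neutrophil and none of 2 erythroid markers tested was called, and 2 of 9 lymphocyte transcription factors were called lower in NK cells.

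**Figure D4:**
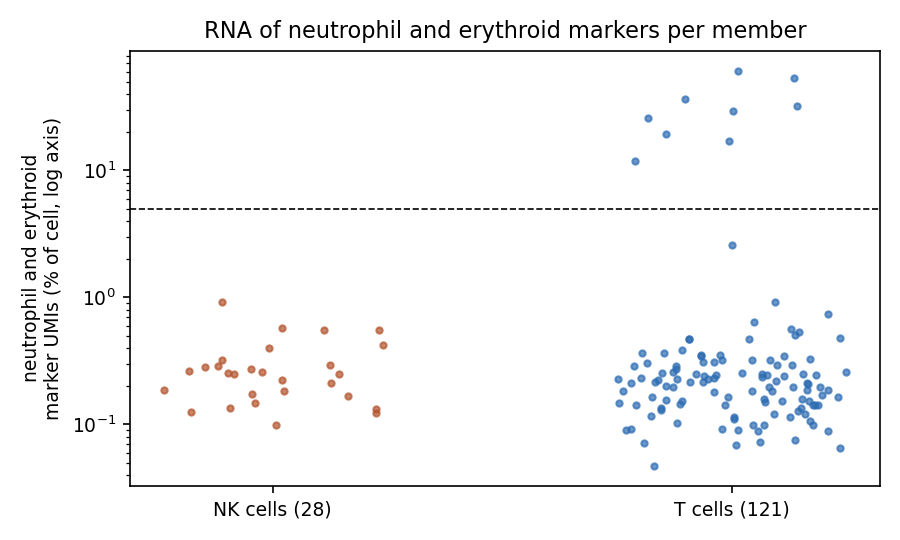
Share of each cell's UMIs (y axis, %, log scale) from the neutrophil and erythroid marker lists, in the 28 NK cells (left) and 121 T cells (right); each point is a cell and the dashed line is at 5%. 9 T cells stand above the line, from 11.9% to 61.2%, and no NK cell does.

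T and NK cells were then summed and compared with 1618 B cells, another lymphocyte type of the digest. These B cells carried Cd79a and Ms4a1 (CD20), no Elane UMI and did not meet the T or NK criterion. Of 6887 genes tested outside the genes that define the sets, 1044 were called (15.2%), 464 higher in T and NK cells (6.74%) and 580 lower (8.42%), while 1702 (24.7%) had an unadjusted p under 0.05. With DESeq2 664 genes were called and with no replicate block 684. All 17 T identity genes tested and all 21 NK identity genes tested were higher, and 10 of 10 B lineage genes were lower. These counts follow in part from the genes that chose the sets, and T and NK genes at or near 0 UMIs in B cells passed the filter on low counts only through T and NK cells, so the counts are a description.

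Of 19 kinases and scaffolds that act close to the receptor, 14 were higher, 2 were lower and 3 were not called. Lck stood at 278, 286 and 237 CPM in T and NK cells, against 13.6, 14.2 and 25.7 CPM in B cells. Zap70, the kinase that reads phosphorylated receptor chains in T cells, averaged 79.2 ± 1.54 CPM in T and NK cells and 3.49 ± 1.70 CPM in B cells (SD, n = 3 libraries each). The 2 lower genes were Syk, the Zap70 relative that serves the B cell receptor (log2 fold change -2.78, SE 0.29, edgeR adjusted p = 6.0e-07), and Plcg2 (-1.33, SE 0.31, edgeR adjusted p = 0.0054). All 4 adaptors were higher. Cd247, the CD3 zeta chain, stood at 111, 89.5 and 72.6 CPM in T and NK cells and had 0 UMIs in B cells, which makes it at least 215-fold higher. Tyrobp, which myeloid cells also express, differed less, by 1.66 (SE 0.22, edgeR adjusted p = 1.8e-05).

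Effector genes were among the largest differences from B cells. Ccl5 stood at 3104, 3956 and 2484 CPM in T and NK cells, against 0, 1.93 and 0.559 CPM in B cells (log2 fold change 11.51, SE 0.37, edgeR adjusted p = 1.7e-13). Xcl1, a chemokine that attracts cross-presenting dendritic cells, had 0 UMIs in B cells and was at least 810-fold higher. The memory and effector chemokine receptors Cxcr3 and Cxcr6 were at least 304-fold and 136-fold higher. Il2rb, the beta chain shared by the IL-2 and IL-15 receptors, stood at 412, 346 and 275 CPM in T and NK cells, against 0, 0 and 0.279 CPM in B cells. All 14 effector and memory genes tested were higher, and 10 of 15 granule genes were, with none lower. Ccl4 was called higher by 4.21, but at 2070, 164 and 15.8 CPM in T and NK cells, against 28.5, 13.8 and 6.15 CPM in B cells, its level in library 1 stood apart and the groups overlapped.

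**Figure D5:**
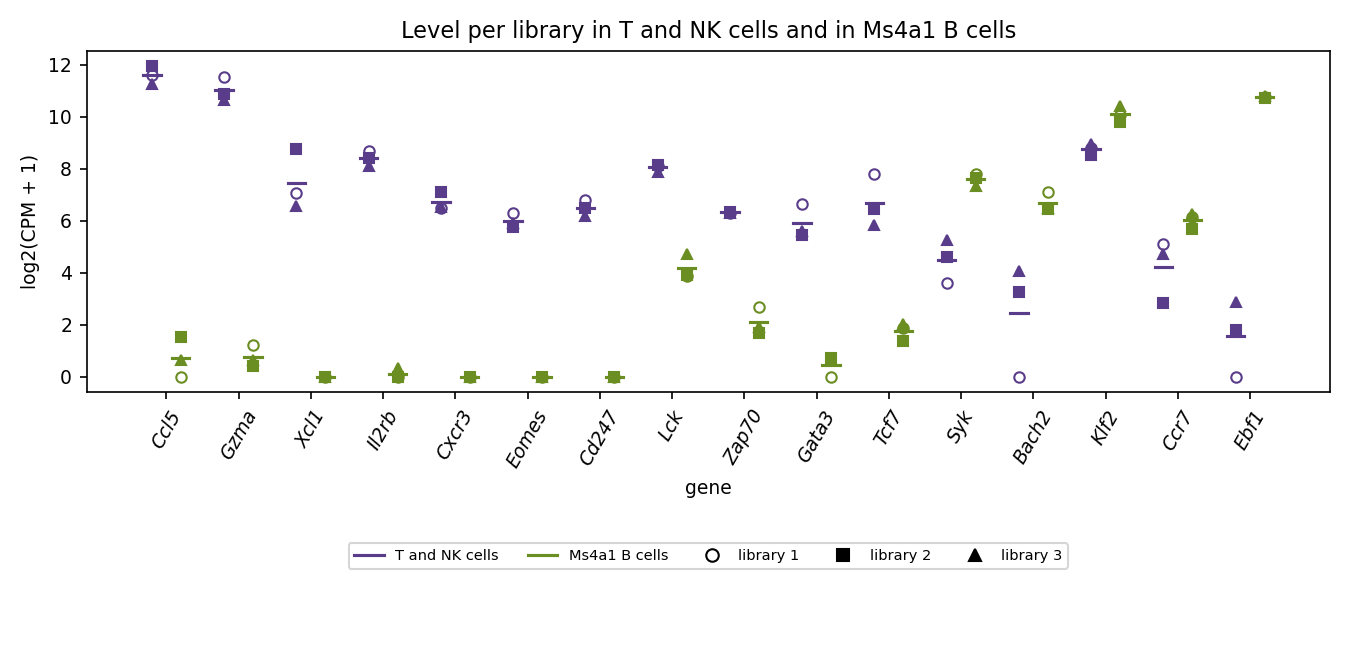
Level per library, as log2(CPM + 1) on the y axis, of 16 genes (x axis) in T and NK cells (left of each pair) and B cells (right); symbols mark the library and lines the mean of the 3. Effector, receptor and kinase genes stand higher in T and NK cells, and Syk, Bach2, Klf2, Ccr7 and Ebf1 stand higher in B cells.

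Transcription factors and trafficking genes were mixed. Of 22 lymphocyte transcription factors, 12 were higher and 7 lower. Eomes, which drives NK and memory CD8 differentiation, was at least 140-fold higher than in B cells, and Gata3 was higher by 6.38 (SE 0.57, edgeR adjusted p = 9.5e-08). Bach2 was lower by 3.17 in log2 terms, at 0, 8.58 and 15.8 CPM in T and NK cells, against 139, 87.2 and 88.6 CPM in B cells. Among 11 genes of naive and recirculating lymphocytes, 5 were higher and 4 lower. Tcf7 averaged 122 ± 88.5 CPM in T and NK cells and 2.47 ± 0.764 CPM in B cells (SD, n = 3 libraries each). Ccr7, the lymph node homing receptor, fell by 2.03 (SE 0.38, edgeR adjusted p = 0.00065), and Klf2, which keeps lymphocytes quiescent and recirculating, fell by 1.32 (SE 0.20, edgeR adjusted p = 8.9e-05).

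Antigen presentation and activation genes differed less. Of 13 class I presentation genes, 6 were higher and none lower. H2-Q7 averaged 536 ± 176 CPM in T and NK cells and 139 ± 18.2 CPM in B cells (SD, n = 3 libraries each), and its transactivator Nlrc5 was higher by 1.27 (SE 0.36, edgeR adjusted p = 0.020). Of 13 integrin and adhesion genes called, among 15 tested, all were higher, with Cd160 at least 403-fold. No cell cycle gene was called of 17, though 5 were called higher without the cells rich in neutrophil and erythroid RNA. Of 13 immediate early genes only Jund was called, lower by 0.89 in log2 terms with overlapping groups.

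RNA of other cell types differed between these sets too. The neutrophil sum ran from 6921 to 56790 CPM in T and NK cells and from 19873 to 50314 CPM in B cells, and 3 of 10 neutrophil markers were called lower and 1 higher (none either way with DESeq2 or with no replicate block). Of the B cells, 95 were over 5% and held 95.5% of the B cells' UMIs of the neutrophil and erythroid lists. Without cells over 5% the neutrophil sum ran from 1074 to 2981 CPM in NK cells and from 1378 to 2063 CPM in T cells, against 1638 to 2752 CPM in B cells. That fit called 1286 genes, and 1010 of the 1021 calls it could test again were called the same way. Chondrocyte markers summed to 6.31 to 156 CPM in T and NK cells and to 269 to 7775 CPM in B cells, and both tested ones, Acan and Col2a1, were lower. Osteoblast and stromal markers summed to 69.9 to 901 CPM in T and NK cells and to 1086 to 5845 CPM in B cells, with 4 of 4 lower. The part of chondrocyte, osteoblast and stromal RNA in the other calls was not tested.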

How the data were processed

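Per the series text, cells were profiled with the 10x Genomics 3' kit v3, and the authors deposited counts of UMIs per gene and barcode, whole numbers without normalization. The submitters' processing notes name Cell Ranger 3.0.2, Seurat 4 and mm10, while the file headers give version 3.0.1 for library 1 and 6.0.0 for libraries 2 and 3. The 3 libraries hold 7430, 11767 and 11032 barcodes and 64695292, 145925353 and 137188648 UMIs. The 30406 genes shared by all 3 were used for sums and levels. CPM is a gene's share of those genes' UMIs in a cell set and library.

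Members and gene lists were chosen with earlier results of these data known. Sums of UMIs per library and cell set were tested with edgeR 4.0.16 (quasi-likelihood, filterByExpr, TMM) in R 4.3.3. The replicate block is the library, whose number the labels give and whose 2 sums come from the same pool. The SE is the absolute log2 fold change over the square root of the F statistic. DESeq2 1.42.0 was an alternative. The rest was done in Python 3.11.15 (scanpy 1.11.5, pandas 2.3.3, scipy 1.17.1, numpy 2.4.6). Named genes were the 12 largest and 12 smallest fold changes among called genes with the same sign in each library and at least 50 CPM in the higher set, and the 2 largest each way per list, together with the adaptors and receptor genes. Gate genes, mitochondrial, ribosomal, haemoglobin and immunoglobulin genes were left out of naming. Cd28, S100a6, Gzmb and Ctsw between NK and T cells, and Lck, Zap70, Ccl4 and Klf2 against B cells, were named after their values were seen. Levels drawn in plots use a pseudocount of 1 CPM. Doublets were not removed, and their removal by Scrublet score at 0.8% per 1000 barcodes was an alternative. CD8 and CD4 T cells were to be tested with at least 10 cells per library in each set, which they did not reach. Promoters are RefSeq's, GRCm38.p6.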

Additional observations from a re-analysis of the deposited data

How the results depend on the processing

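The count of 39 genes called between NK and T cells depended on the processing. It was 23 with DESeq2, 134 with no filter on low counts, 12 with no replicate block, 25 with at most 5% mitochondrial UMIs, 23 with at least 1000 genes and 25 where T cells needed a Trac UMI, a setting chosen after seeing the data. Leaving out 1 library gave 14 to 148 calls, 148 without library 1, which has 3 NK cells, and 14 without library 2. Ngp was 0.071 in log2 terms without cells rich in neutrophil and erythroid RNA, also chosen after seeing the data. All 12 calls made with no replicate block were among the 39. Of the 1044 calls between T and NK cells and B cells, DESeq2 made 664 and the fit with no replicate block 684, and leaving out 1 library gave 755 to 1235. Ngp was 0.37 in that comparison with doublets removed. The NK share was 0.202% where Cd79a and Elane UMIs were allowed, and leaving out 1 library gave 0.0840% to 0.118%. The T share ran from 0.249% to 0.511% in the same way. The causes were not tested. The alternatives for CD8 against CD4 T cells were not run, since the sets were under the minimum of cells set for a fit. Among named genes of NK against T cells, 6 lost their call with DESeq2, 12 with no replicate block and 9 without library 2. The NK sum of library 1 held 20799 UMIs from 3 cells, which limits what could be detected.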

Other observations

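The 10 barcodes that had exactly 1 of Cd3e, Cd3d, Cd3g and Trac together with Klrb1c and Nkg7 carried NK genes. Ncr1 and Klre1 each had a UMI in 90.0% of them, Ccl5 and Trbc1 in 100%, and Cd5, Cd6, Bcl11b, Cd4 and Cd8a in 0%. Cd3g was the gene found in 70.0% of them. Trbc1 also had a UMI in 60.7% of NK cells, which carried none of the 4 rule genes, and in 0 of 1618 B cells. Il7r, a survival cytokine receptor, had a UMI in 0% of NK cells and 31.4% of T cells.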
